A study of Mus musculus with 18 samples.

Results

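The comparison described here set the livers of 6 old mice given ouabain against the livers of 6 young mice, 12 of the 18 liver libraries of the series. All mice were female. The old ouabain mice were labelled 24 months old. Ouabain, a plant glycoside and inhibitor of the membrane pump that exchanges sodium for potassium, was dosed at 1 mg/kg. Each round was a week with 4 treatments, rounds began at weeks 0, 3, 6, 9 and 12 with 2 weeks of rest between them, and livers were collected 3 days after the final round. The young mice were labelled 7 weeks old and untreated. The remaining 6 libraries, from mice of 24 months on the same schedule with saline vehicle, are used for values beside the comparison. The sources used here give neither strain nor housing. The young mice had neither saline nor ouabain, so age, dosing and handling cannot be told apart in any difference from young. The labels number the livers within a group without naming animals, so p-values measure the spread between these livers. RNA was extracted from whole frozen liver, and its reads were counted per gene. Of 37620 genes in the count table, 13640 reached 1 CPM (counts scaled to the library total) in at least 6 of the 12 libraries and were tested.

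The liver of the adult mouse differs strongly between the sexes. Its sex-biased genes, many of them cytochrome P450 enzymes, sulfotransferases and secreted proteins, are set after puberty by the pituitary pattern of growth hormone acting through the transcription factor STAT5. The ageing liver is also known to gain lymphocytes and macrophages, while its hepatocytes, which export most plasma proteins, depend on chaperones of the endoplasmic reticulum to fold them. Gene lists for these functions and for the liver's cell types are used below, and a list's count covers only the members that passed the level filter. A gene that was high in 1 group alone could pass that filter, so counts and medians over a list are descriptions.

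Old ouabain livers differed from young livers at 139 of the 13640 genes tested, or 1.02% (edgeR quasi-likelihood test, Benjamini-Hochberg adjusted p below 0.05). Of these, 87 were higher, 0.638% of the genes tested, and 52 were lower, 0.381%. The rises were the larger changes. Their median log2 fold change was 1.17 (0.39 to 4.98), and 52 of the 87 were over 2-fold. The falls had a median of -0.45 (-0.30 to -1.02), and 1 of the 52, Nucb2, was over 2-fold. The higher genes had a median level of 10.9 CPM over the 12 libraries and the lower genes 42.9 CPM. A small change is harder to call at a low level, so the sizes also depend on which genes could pass. The old vehicle livers, tested against the same young livers, differed at 2449 genes, 18% of those tested, with 1372 higher (10.1%) and 1077 lower (7.9%). Both comparisons share the young livers, so their values are only set side by side. Over the 87 genes higher in old ouabain livers the median log2 difference of the old vehicle livers from young was 1.68, and over the 52 lower genes it was -0.40. Tested directly, old ouabain and old vehicle livers differed at 245 genes, 1.8%, with 127 higher (0.931%) and 118 lower (0.865%) in the ouabain group. When each library was left out in turn that count fell as low as 63 (old ouabain replicate 6 left out) and rose as high as 596 (old vehicle replicate 6 left out). At an unadjusted p below 0.05, 2195 genes (16.1%) separated old ouabain from young. At that cut 4222 genes separated old vehicle from young, and 2734 separated old ouabain from old vehicle. The gap between the counts of the old groups against young therefore depended on the threshold.

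**Figure D1:**
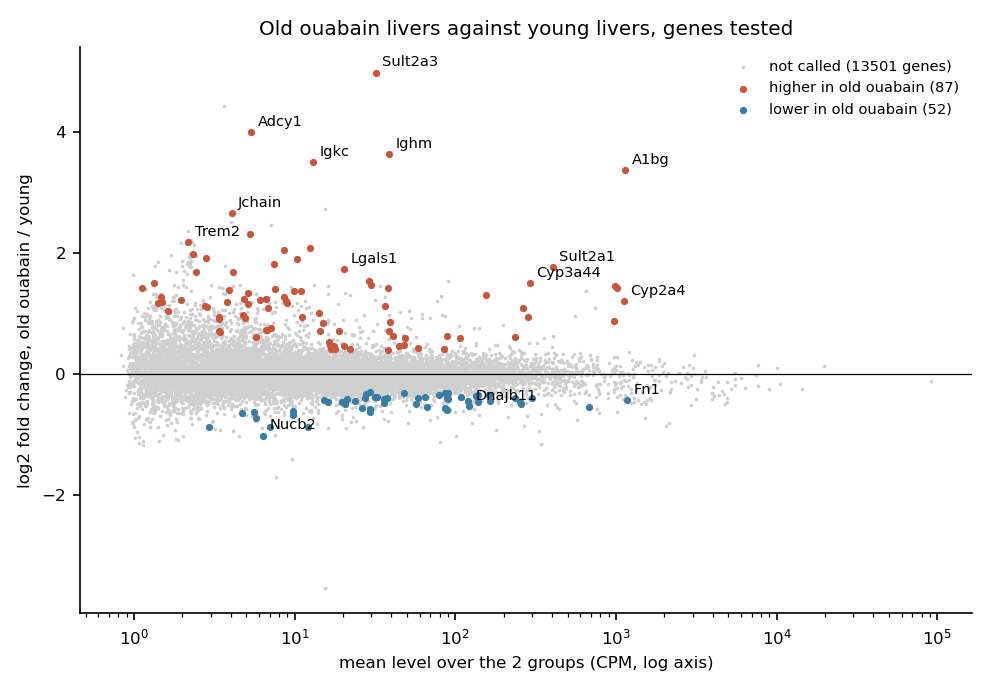
Each point is 1 of the 13640 genes tested, with the mean of the 2 groups in CPM on a log axis and the log2 fold change of old ouabain over young livers on the vertical axis. The 87 higher genes (red) reach 4.98, and the 52 lower genes (blue) lie between -0.30 and -1.02.

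The shallowest of the 12 libraries, old ouabain replicate 5, held 4201251 counts, and the deepest, young replicate 2, held 11113307. The biological coefficient of variation was 0.180 in young, 0.142 in old ouabain and 0.209 in old vehicle livers. On the first principal component of the 12 libraries (24.3% of the variance), old ouabain livers lay at -33.7 to -8.49 and young livers at -0.888 to 33.0, with old ouabain replicate 2 farthest from the young livers and young replicate 1 nearest to the old ouabain livers. The number of calls depended on single livers. Without old ouabain replicate 2, 34 genes were called, and without young replicate 1, 587 were. Without young replicates 3, 4 or 5 the counts were 62, 70 and 52, without old ouabain replicate 5 the count was 69, and without old vehicle replicate 4 it was 209. Hepatocyte identity genes were measured in every library: all 18 passed the filter, and their summed level was 130820 to 158030 CPM in old ouabain and 129030 to 186260 CPM in young livers. Of the 18, 0 passed the test in either direction, where 1.02% of all genes tested did. Their median log2 fold change was -0.14, with 13 of 18 below 0. In old vehicle livers 8 of the 18 were lower than in young and 0 higher, against 7.9% and 10.1% of all genes.

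The list with the most called rises held genes that are expressed more in female than in male mouse liver. Of 31 such genes, all of which passed the filter, 10 rose and none fell, against 0.638% and 0.381% of all genes tested. Their median log2 fold change was 0.47 where that of all genes was -0.0095, with 22 of the 31 above 0 and 9 below. The members that rose encode steroid sulfotransferases (Sult2a1, Sult2a2), cytochrome P450 enzymes (Cyp3a41a, Cyp3a41b, Cyp3a44, Cyp3a16, Cyp2a4), the secreted protein A1bg, the transcription factor Cux2 and the monocarboxylate transporter family member Slc16a5. In the old vehicle livers 17 of the 31 were higher and 1 lower than in young, against 10.1% and 7.9% of all genes, with a median of 0.61. Between old ouabain and old vehicle livers 0 of the 31 passed the test, where 1.8% of all genes tested did, and the median log2 fold change was -0.22. The list was put together with earlier results of these data known, and leaving out 1 library at a time gave 6 to 12 members higher and none lower.

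A1bg (ENSMUSG00000022347), alpha-1-B glycoprotein, a plasma protein made by female mouse liver, had 631 to 3482 CPM (median 2212) in the old ouabain livers and 79.2 to 422 CPM (median 166) in the young livers. No young liver reached the lowest old ouabain liver. The rise was called (log2 fold change 3.37, SE 0.58, edgeR adjusted p = 0.0142) and held when each of the 18 libraries was left out in turn. The old vehicle livers spread from 478 to 5665 CPM, so 1 vehicle liver lay near the young range. The 250 bases before the A1bg start are shown because they hold a match to TTCNNNGAA, the letters that STAT5 binds (capitals; RefSeq, build GRCm38.p6, chr15:60921271-60921520, minus strand).
A1bg: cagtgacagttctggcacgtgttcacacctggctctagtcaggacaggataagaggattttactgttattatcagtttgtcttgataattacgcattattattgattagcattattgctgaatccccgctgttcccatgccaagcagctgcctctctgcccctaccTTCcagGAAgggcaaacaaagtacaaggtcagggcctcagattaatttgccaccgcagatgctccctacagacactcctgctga
Searched on both strands of these windows, TTCNNNGAA was found before 2197 of 27025 genes with a promoter in the table (8.13%). Among tested genes that had one it was found before 705 of 9445 (7.46%). It was found before 4 of the 23 female-biased genes that had one (17.4%) and before 3 of the 20 male-biased genes (15%). Of the 4, A1bg alone was called. Of the genes higher in old ouabain livers that had a promoter, 3 of 62 held it (4.84%).

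Sulfotransferases of the Sult2a family attach sulfate to steroids and bile acids. Sult2a3 (ENSMUSG00000074375) had the largest log2 fold change of all called genes, with 32.8 to 96.3 CPM (median 57.1) in the old ouabain livers and 0.537 to 3.08 CPM (median 1.98) in the young livers (log2 fold change 4.98, SE 0.41, edgeR adjusted p = 8.16e-06). Every old ouabain liver was more than 10 times above the highest young liver. Sult2a1 had 377 to 965 CPM (median 594) in the old ouabain livers and 65.9 to 326 CPM (median 178) in the young livers (log2 fold change 1.77, SE 0.27, edgeR adjusted p = 0.00642), and the groups did not overlap. Sult2a6 differed by a log2 fold change of 1.81 (SE 0.32, adjusted p = 0.0123) with 1 old ouabain liver inside the young range. Sult2a2 and Sult2a4 followed at 0.94 (SE 0.20, adjusted p = 0.0325) and 1.12 (SE 0.22, adjusted p = 0.0185). Family members share reads to a degree that the counting may not have resolved: of all 50-base stretches in its transcripts, Sult2a2 shares 62.1% with other genes and Sult2a1 33.2%, but Sult2a3 8.36% and Sult2a6 6.63%. Young replicate 5 was the lowest young liver for Sult2a1, Sult2a2, Sult2a3, Sult2a4 and Sult2a6. Sult2a1, Sult2a3 and Sult2a6 stayed called without any 1 library.

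The P450 enzymes of subfamily 3A that rose oxidise steroids and drugs. Cyp3a44 had 218 to 602 CPM (median 442) in the old ouabain livers and 112 to 193 CPM (median 158) in the young livers (log2 fold change 1.51, SE 0.24, edgeR adjusted p = 0.00642). Cyp3a16, a form that is prominent in the fetal and juvenile liver, had 136 to 299.9 CPM (median 222) in the old ouabain livers and 61.6 to 116 CPM (median 89.2) in the young livers (log2 fold change 1.31, SE 0.22, edgeR adjusted p = 0.0085). For both genes the lowest old ouabain liver, replicate 6, lay above the highest young liver. Cyp3a41a and Cyp3a41b had log2 fold changes of 1.43 (SE 0.27, adjusted p = 0.0163) and 1.46 (SE 0.26, adjusted p = 0.0142), but 93.7% of the 50-base stretches of Cyp3a41a occur in Cyp3a41b and so the values of this pair are uncertain and may be 1 signal. Old ouabain replicate 6 lay inside the young range for both. The closeness of the pair, and the distance of Cyp3a44, can be read in the 250 bases before their starts, where capitals mark letters that differ from Cyp3a41a (RefSeq, build GRCm38.p6; Cyp3a41a chr5:145720137-145720386, minus strand; Cyp3a41b chr5:145584731-145584980, minus strand; Cyp3a44 chr5:145805875-145806124, minus strand).
Cyp3a41a: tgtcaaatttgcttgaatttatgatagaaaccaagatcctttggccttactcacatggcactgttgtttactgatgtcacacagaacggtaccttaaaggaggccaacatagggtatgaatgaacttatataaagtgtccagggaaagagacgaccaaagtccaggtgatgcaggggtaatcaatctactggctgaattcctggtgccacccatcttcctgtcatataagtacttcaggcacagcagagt
Cyp3a41b: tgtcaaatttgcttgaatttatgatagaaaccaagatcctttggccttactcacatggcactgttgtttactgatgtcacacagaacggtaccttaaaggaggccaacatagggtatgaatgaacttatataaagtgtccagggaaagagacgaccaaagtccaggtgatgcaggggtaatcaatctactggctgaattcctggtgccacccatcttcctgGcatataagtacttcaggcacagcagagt
Cyp3a44: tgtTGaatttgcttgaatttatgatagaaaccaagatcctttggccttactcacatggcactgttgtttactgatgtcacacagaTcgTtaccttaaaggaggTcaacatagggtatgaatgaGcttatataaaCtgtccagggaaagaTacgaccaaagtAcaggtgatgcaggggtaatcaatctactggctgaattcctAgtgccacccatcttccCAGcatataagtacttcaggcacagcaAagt
Cyp3a41b differs from Cyp3a41a at 1 base of the 250 (99.6% identical) and Cyp3a44 at 14 (94.4%).

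In subfamily 2A, Cyp2a4, a steroid 15-alpha-hydroxylase, had 990.2 to 2478 CPM (median 1503) in the old ouabain livers and 565 to 902 CPM (median 656) in the young livers (log2 fold change 1.20, SE 0.19, edgeR adjusted p = 0.00642), with no overlap between the groups. Cyp2a5, the coumarin hydroxylase of mouse liver, had a log2 fold change of 0.87 (SE 0.21, adjusted p = 0.0473), with old ouabain replicate 1 inside the young range. The call of Cyp2a5 was lost in 13 of the 18 fits that each left out 1 library, with adjusted p up to 0.138, and Cyp2a4 shares 36.1% of its 50-base stretches with Cyp2a5. Cyp2c38 and Cyp2g1 also rose, by 0.60 (SE 0.10, adjusted p = 0.00661) and 1.27 (SE 0.25, adjusted p = 0.0175) on the log2 scale. Against vehicle Cyp2c38 was called lower in the old ouabain livers (log2 fold change -0.55, SE 0.10, edgeR adjusted p = 0.00752). Cyp2g1 lost its call without old ouabain replicate 2 or young replicate 5 (adjusted p up to 0.0562). Cyp2a5, Cyp2c38 and Cyp2g1 were the 3 members that rose among 24 P450 genes of xenobiotic metabolism that passed the filter. None of the 24 fell, and of all genes tested 0.638% rose and 0.381% fell. The list's median log2 fold change was -0.08.

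Cux2 (Cut-like homeobox 2), a transcription factor of female mouse liver, had 31.8 to 60.1 CPM (median 42.4) in the old ouabain livers and 3.97 to 24.8 CPM (median 16.4) in the young livers (log2 fold change 1.53, SE 0.33, edgeR adjusted p = 0.0342). All 6 old ouabain livers were above all 6 young livers, but leaving out old ouabain replicate 2, 3, 4 or 5 or young replicate 4 or 5 ended the call (adjusted p up to 0.108). Other members of the female-biased list gave values without a call: Acot3, a peroxisomal thioesterase, was at 1.20 (adjusted p = 0.056), Cyp17a1, the steroid 17-alpha-hydroxylase, at 0.81 (adjusted p = 0.187) and Cyp2b9 at -0.33 (adjusted p = 0.833).

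**Figure D2:**
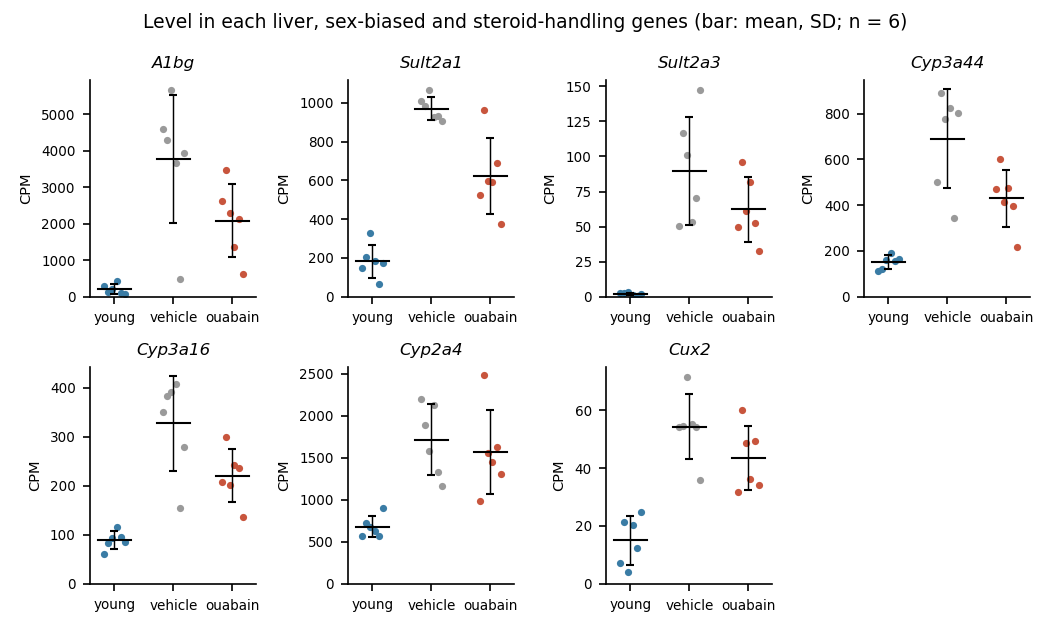
Points are the CPM of each liver in the young, old vehicle and old ouabain groups, with the mean and SD of 6 livers as bars. In all 7 genes the lowest old ouabain liver lies above the highest young liver, for example 32.8 against 3.08 CPM for Sult2a3 and 31.8 against 24.8 CPM for Cux2. The 7 genes were picked for display. Of all 139 called genes, 93 had no overlap between old ouabain and young livers. A call favours genes without overlap, and the share among all genes tested was not counted, so this only describes the called genes. Called relatives with overlap, such as Sult2a2, Sult2a6, Cyp3a41a and Cyp3a41b, are not plotted.

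Of 30 listed male-biased genes, the counterpart of the list above, 27 passed the filter. Against young livers 1 of the 27 fell in old ouabain livers and none rose, against 0.381% and 0.638% of all genes tested. The median log2 fold change was -0.41, with 23 of 27 below 0. In old vehicle livers 19 of the 27 were lower and 1 was higher than in young (median -1.15), against 7.9% and 10.1% of all genes. In the direct test of ouabain against vehicle, 12 of the 27 were higher in old ouabain livers and 0 were lower (median 0.77), against 0.931% and 0.865% of all genes tested. The member lower than young was Hsd3b2, a 3-beta-hydroxysteroid dehydrogenase of steroid metabolism. It had 45.7 to 56.9 CPM (median 50.6) in the old ouabain livers and 56.4 to 76 CPM (median 67.7) in the young livers (log2 fold change -0.40, SE 0.09, edgeR adjusted p = 0.0241), and the groups overlapped only in that old ouabain replicate 6 lay just above young replicate 1. In old vehicle livers it was at 36.4 ± 3.71 CPM (SD, n = 6), and its rise from vehicle to ouabain was called (log2 fold change 0.48, SE 0.09, edgeR adjusted p = 0.0081). The call against young was lost without old ouabain replicate 2, 4 or 5 or young replicate 3 or 5 (adjusted p up to 0.0816). Hsd3b2 shares 25.1% of its 50-base stretches with other genes.

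Slco1a1 (ENSMUSG00000041698), an organic anion transporter, separated the old groups widely. It had 30.9 to 89.2 CPM (median 72.5) in the old ouabain livers and 63.2 to 259.6 CPM (median 121) in the young livers, and the groups overlapped. Old vehicle livers were at 0 to 1.23 CPM (median 0.92). The old ouabain livers did not pass the test against young (log2 fold change -1.04, SE 0.34, edgeR adjusted p = 0.156) and passed it against vehicle (log2 fold change 6.37, SE 0.52, edgeR adjusted p = 1.69e-05). C8a and C8b, subunits of the complement membrane attack complex, were at log2 fold changes of -1.16 (adjusted p = 0.245) and -0.93 (adjusted p = 0.217) from young. A p that misses the threshold does not show that these genes are at the young level.

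Igf1, the growth factor that growth hormone induces in hepatocytes, had 491 to 550.2 CPM (median 542) in the old ouabain livers and 495 to 812 CPM (median 611) in the young livers (log2 fold change -0.22, SE 0.10, edgeR adjusted p = 0.307). St3gal6, a sialyltransferase, had 8.3 to 25.7 CPM (median 15.3) in the old ouabain livers and 1.55 to 6.7 CPM (median 4.79) in the young livers (log2 fold change 1.89, SE 0.28, edgeR adjusted p = 0.00469) with no overlap.

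Immunoglobulin transcripts formed the next group of large rises. These genes encode the antibody chains that B cells and plasma cells make. Ighm (ENSMUSG00000076617), the constant region of the IgM heavy chain, had 32.4 to 102 CPM (median 70.1) in the old ouabain livers and 4.32 to 7.47 CPM (median 5.78) in the young livers (log2 fold change 3.64, SE 0.37, edgeR adjusted p = 9.42e-05). The lowest old ouabain liver was above 4 times the highest young liver. Igkc, the kappa light chain constant region, had 10.6 to 40.2 CPM (median 22.3) in the old ouabain livers and 0.429 to 2.84 CPM (median 2.51) in the young livers (log2 fold change 3.51, SE 0.42, edgeR adjusted p = 6.87e-04). Jchain, which joins antibody monomers into polymers, had 5.08 to 13.9 CPM (median 5.71) in the old ouabain livers and 0.695 to 1.48 CPM (median 1.09) in the young livers (log2 fold change 2.65, SE 0.51, edgeR adjusted p = 0.0185). In all 3 genes no young liver reached any old ouabain liver. Ighm and Igkc stayed called without any 1 library, and Jchain was lost without young replicate 3 or 5 (adjusted p up to 0.0582).

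These 3 genes were the called members of the plasma cell list, of which 6 of 14 genes passed the filter. Of the 6, 4 were above 0 on the log2 scale and 2 below. None was called lower, and 0.638% and 0.381% of all genes tested were higher and lower. DESeq2 called 3 higher and 1 lower. In old vehicle livers 3 of the 6 were higher and 2 lower than in young, against 10.1% and 7.9% of all genes. The summed level of the 14 genes was 585 to 683 CPM in old ouabain and 531 to 664 CPM in young livers, most of it from Sdc1 and Xbp1, which hepatocytes also express. Among the members too low to be tested, the plasma cell gene Mzb1 averaged 0.997 CPM in old ouabain and 0.135 CPM in young livers, and Tnfrsf17, the receptor BCMA, was listed at 0 in the young livers. The B cell list had 5 of 11 genes tested, all 5 above 0 on the log2 scale (median 1.44) and 0 called. Its sum ran from 8.64 to 59.9 CPM in old ouabain livers, 9.12 to 49.1 CPM in old vehicle and 7.65 to 12.0 CPM in young livers. Cd79b, a part of the B cell receptor, was at 1.88 (SE 0.66, adjusted p = 0.179). In bulk liver, more cells of a type and more RNA per cell cannot be told apart. The part of B lineage cells in the immunoglobulin rises was not tested.

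A few genes of macrophages and of antigen presentation also rose in the old ouabain livers. MHC class II molecules present peptides to helper T cells. Of the 9 class II genes that passed the filter, 2 rose and 0 fell, against 0.638% and 0.381% of all genes tested, the median log2 fold change was 1.17, and all 9 were above 0. In old vehicle livers 9 of the 9 were higher than in young (median 1.73), where 10.1% of all genes were. Between ouabain and vehicle 0 of the 9 were called, where 1.8% of all genes tested were, and the median log2 fold change was -0.72. H2-Aa had 35.2 to 72.8 CPM (median 58.5) in the old ouabain livers and 15.8 to 29.1 CPM (median 19.3) in the young livers (log2 fold change 1.41, SE 0.32, edgeR adjusted p = 0.0473), and H2-Eb1 had 25.8 to 60.3 CPM (median 48.1) in the old ouabain livers and 10.8 to 24.2 CPM (median 14) in the young livers (log2 fold change 1.47, SE 0.34, edgeR adjusted p = 0.0477). Neither pair of groups overlapped. Cd74, the invariant chain, was at 1.53 (SE 0.37, adjusted p = 0.056) and H2-Ab1 at 1.46 (SE 0.35, adjusted p = 0.0595), short of the threshold. Leaving out 1 library at a time gave 0 to 5 called class II genes, 0 without old ouabain replicate 2 and 5 without young replicate 1, and ended the call of H2-Aa in 10 and of H2-Eb1 in 12 of 18 fits (adjusted p up to 0.127 and 0.132). Of 17 tested genes of MHC class I presentation 0 rose and 0 fell (median 0.17).

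Of the monocyte-derived macrophage markers, 15 of 19 passed the filter, 3 rose and 0 fell, against 0.638% and 0.381% of all genes, and the median log2 fold change was 0.83. Old vehicle livers had 13 of the 15 higher than young and 1 lower (median 1.92), against 10.1% and 7.9% of all genes. Old ouabain livers were lower than vehicle at 4 of the 15, against 0.865% of all genes. Cx3cr1, the fractalkine receptor, had 1.19 to 2.7 CPM (median 1.87) in the old ouabain livers and 0.298 to 0.996 CPM (median 0.789) in the young livers (log2 fold change 1.5, SE 0.28, edgeR adjusted p = 0.0142). Trem2, a lipid-sensing receptor of macrophages, had 1.4 to 7.06 CPM (median 2.77) in the old ouabain livers and 0.455 to 1.28 CPM (median 0.665) in the young livers (log2 fold change 2.18, SE 0.49, edgeR adjusted p = 0.0398). For both, all old ouabain livers lay above all young livers, at levels close to the 0.274 to 0.696 CPM that a count of 0 allows in these 12 libraries (3 counts, counting error only). The third was Apoc2, an apolipoprotein that hepatocytes also express, at 0.61 (SE 0.12, adjusted p = 0.0163). Cx3cr1 and Apoc2 lost their calls without old ouabain replicate 2 (adjusted p = 0.0505 for each), and Trem2 without 8 single libraries, among them old ouabain replicate 2 and young replicate 5 (adjusted p up to 0.126). The summed level of the 19 genes was 478 to 678 CPM in old ouabain, 662 to 1103 CPM in old vehicle and 301 to 589 CPM in young livers.

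Beside the counts of this paragraph, 0.638% of all genes tested rose in old ouabain livers and 0.381% fell. Kupffer cells, the resident macrophages, gave no called rise. Of their 18 markers 1 fell, Hpgd, a prostaglandin dehydrogenase (log2 fold change -0.37, SE 0.09, edgeR adjusted p = 0.0398), a call lost in 10 of 18 fits without 1 library (adjusted p up to 0.126), while 16 of 18 were above 0 and the median log2 fold change was 0.76. Clec4f, the lectin that defines Kupffer cells in the mouse, was at 0.76 (SE 0.38, adjusted p = 0.34) and Vsig4, a complement receptor, at 1.23 (SE 0.41, adjusted p = 0.16). Their sum was 818 to 1592 CPM in old ouabain and 687 to 831 CPM in young livers. The 6 tested neutrophil genes of 14 had a median of 1.47 with 0 called, among them S100a8 at 1.47 (SE 0.52, adjusted p = 0.18), and Ly6g was listed at 0 in the young livers. Of 18 T cell markers and 12 natural killer and cytotoxic markers, 2 of each passed the filter and 0 were called. The part of these cell types in any difference from young was not tested.

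Chemokines guide leukocytes into tissue. Beside the counts that follow, 0.638% of all genes tested were higher in old ouabain than in young livers and 10.1% were higher in old vehicle than in young livers. Of 16 tested ligands and receptors, 2 rose, Ccl5 and Cx3cr1, and 0 fell (median 0.91), where 13 rose in old vehicle livers (median 1.48). Ccl5 had 2.2 to 6.03 CPM (median 3.59) in the old ouabain livers and 0.498 to 1.36 CPM (median 0.874) in the young livers (log2 fold change 1.98, SE 0.40, edgeR adjusted p = 0.0185), with no overlap, and lost the call without old ouabain replicate 2 or young replicate 3 or 5 (adjusted p up to 0.0532). Lgals1, galectin-1, a sugar-binding protein of leukocytes and mesenchymal cells, had 22.3 to 54.7 CPM (median 26.9) in the old ouabain livers and 6.65 to 15.3 CPM (median 8.3) in the young livers (log2 fold change 1.73, SE 0.29, edgeR adjusted p = 0.0123) and stayed called without any 1 library. Its highest value, 54.7 CPM, was in old ouabain replicate 2. Of 30 lysosomal genes 2 rose, among them Cd63, a tetraspanin (0.73 (SE 0.16, adjusted p = 0.0253)), where 13 rose in old vehicle livers. Cd63 was lost without old ouabain replicate 2, 4 or 6 or young replicate 5 or 6 (adjusted p up to 0.0802). Of 42 interferon-stimulated genes 0 rose and 0 fell (median 0.16), where 15 rose in old vehicle livers.

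**Figure D3:**
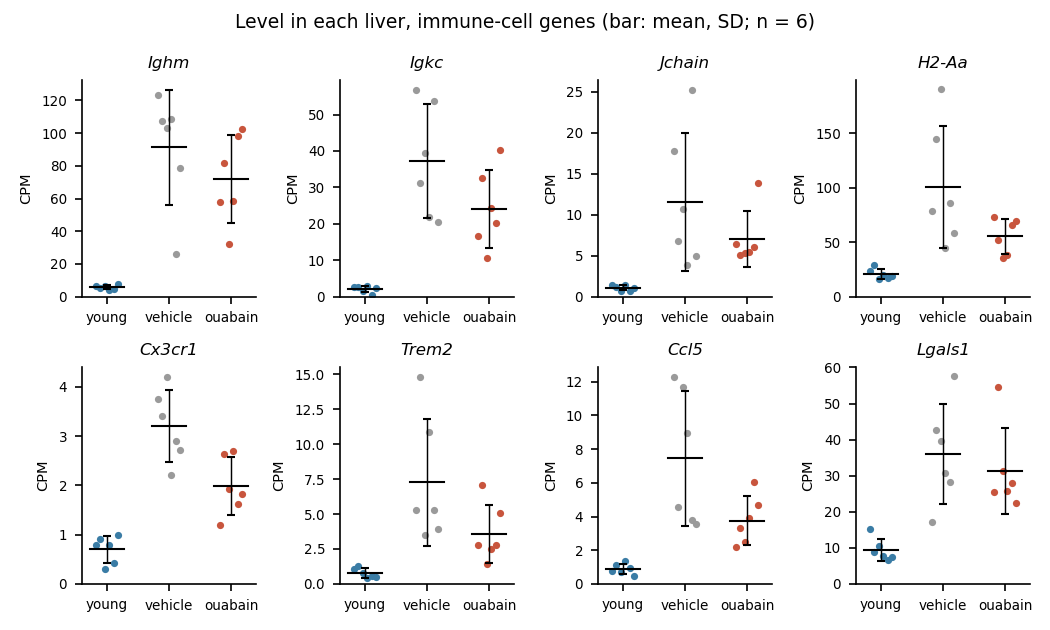
Points are the CPM of each liver in the young, old vehicle and old ouabain groups, with the mean and SD of 6 livers as bars. In all 8 genes the lowest old ouabain liver lies above the highest young liver, for example 32.4 against 7.47 CPM for Ighm and 1.19 against 0.996 CPM for Cx3cr1. The 8 genes were picked for display. Of all 139 called genes, 93 had no overlap between old ouabain and young livers. A call favours genes without overlap, and the share among all genes tested was not counted, so this only describes the called genes.

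The list with the most called falls held chaperones of the endoplasmic reticulum. They fold and quality-check proteins bound for secretion. All 34 listed genes passed the filter, 4 fell and 0 rose, against 0.381% and 0.638% of all genes tested. The median log2 fold change was -0.33, and 33 of the 34 were below 0. In old vehicle livers 20 of the 34 were lower than in young (median -0.42), against 7.9% of all genes. Between ouabain and vehicle 0 of the 34 were called, where 1.8% of all genes tested were, and the median log2 fold change was 0.16. The summed level was 7313 to 9172 CPM in old ouabain, 7069 to 8672 CPM in old vehicle and 9667 to 13727 CPM in young livers, so no old ouabain liver reached the lowest young liver. Leaving out 1 library changed the number of calls, which was 0 when old ouabain replicate 2 was dropped and 6 at most, while the median stayed between -0.34 and -0.27, and DESeq2 called 15 of the 34 lower.

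Dnajb11 (ENSMUSG00000004460), a co-chaperone of the Hsp70 protein BiP, had 82.1 to 112 CPM (median 105) in the old ouabain livers and 121 to 195 CPM (median 138) in the young livers (log2 fold change -0.54, SE 0.12, edgeR adjusted p = 0.0342). Young replicate 1 was the highest, and every old ouabain liver was below every young liver. Dnajc3 (ENSMUSG00000022136), a co-chaperone that also inhibits the stress kinase PERK, had 166 to 231 CPM (median 220.0) in the old ouabain livers and 246 to 322 CPM (median 300.4) in the young livers (log2 fold change -0.46, SE 0.10, edgeR adjusted p = 0.0227), again with no overlap. Sel1l, the adaptor of the Hrd1 ubiquitin ligase for misfolded proteins, had a log2 fold change of -0.35 (SE 0.08, adjusted p = 0.0399) and Dnajc10, a disulfide reductase, one of -0.33 (SE 0.08, adjusted p = 0.0477). Left out alone, old ouabain replicates 2, 5 and 6 and young replicates 3 to 6 each ended the call of Dnajb11 (adjusted p up to 0.116), old ouabain replicates 2 and 5 and young replicates 3 and 5 that of Dnajc3 (up to 0.0802), and 11 of the 18 libraries that of Sel1l (up to 0.127). Other folding factors were below 0 without a call: Hspa5 (BiP) was at -0.63 (SE 0.21, adjusted p = 0.146), Hsp90b1 (GRP94) at -0.48 (SE 0.14, adjusted p = 0.101), Calr (calreticulin) at -0.34 (SE 0.11, adjusted p = 0.128) and Creld2 at -1.13 (SE 0.41, adjusted p = 0.197).

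Many genes of this group are induced through the endoplasmic reticulum stress element (ERSE), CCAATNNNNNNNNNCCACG, where NF-Y and ATF6 bind. The promoters of Dnajc3 and Hspa5 are shown with the element in capitals, beside that of Dnajb11, in which these letters were not found (250 bases before the start, RefSeq, build GRCm38.p6; Dnajc3 chr14:118937682-118937931, plus strand; Hspa5 chr2:34771840-34772089, plus strand; Dnajb11 chr16:22857595-22857844, plus strand).
Dnajc3: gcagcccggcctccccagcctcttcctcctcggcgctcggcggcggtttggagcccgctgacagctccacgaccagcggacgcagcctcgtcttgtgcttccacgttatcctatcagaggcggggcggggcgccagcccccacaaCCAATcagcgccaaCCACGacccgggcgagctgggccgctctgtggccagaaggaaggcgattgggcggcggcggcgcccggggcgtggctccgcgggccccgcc
Hspa5: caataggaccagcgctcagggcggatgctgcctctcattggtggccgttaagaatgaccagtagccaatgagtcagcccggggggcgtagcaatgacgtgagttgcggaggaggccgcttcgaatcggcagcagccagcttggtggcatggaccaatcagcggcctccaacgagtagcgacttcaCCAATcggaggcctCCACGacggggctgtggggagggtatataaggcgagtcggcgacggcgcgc
Dnajb11: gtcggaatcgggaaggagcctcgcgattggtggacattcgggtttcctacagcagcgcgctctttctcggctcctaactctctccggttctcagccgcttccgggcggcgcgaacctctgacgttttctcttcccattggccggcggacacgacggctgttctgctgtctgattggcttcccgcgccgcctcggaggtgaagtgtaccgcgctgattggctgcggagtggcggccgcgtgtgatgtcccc
Searched on both strands, the element was found before 35 of 27025 genes with a promoter in the table (0.13%), before 17 of the 9445 tested genes that had one (0.18%) and before 9 of the 28 chaperone genes that had one (32.1%). Of 39 lower genes with a promoter it was found before 1, Dnajc3, and of 62 higher genes before 0.

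Further genes of the secretory route were among the 52 that fell, and were picked out after their values were seen. Serp1, which stabilises membrane proteins under stress, had a log2 fold change of -0.50 (SE 0.11, adjusted p = 0.03). Ssr3 and Tram1, both of the protein translocation machinery, were at -0.40 (SE 0.09, adjusted p = 0.0302) and -0.35 (SE 0.08, adjusted p = 0.0473), and the signal peptidase subunit Spcs3 was at -0.32 (SE 0.08, adjusted p = 0.0461). Of the vesicle transport genes, Tmed7 was at -0.39 (SE 0.07, adjusted p = 0.0127), the Golgi tether Cog6 at -0.41 (SE 0.10, adjusted p = 0.0454) and the Golgi GTPase Arl1 at -0.32 (SE 0.07, adjusted p = 0.0238). Old ouabain replicate 2 was the lowest old ouabain liver in all 7 genes. Without that library 5 genes of all those tested were called lower than young. Against vehicle none of the 7 passed the test, where 1.8% of all genes tested did. Old vehicle livers were called lower than young in each of the 7 but Spcs3 (log2 fold change -0.11, edgeR adjusted p = 0.355).

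**Figure D4:**
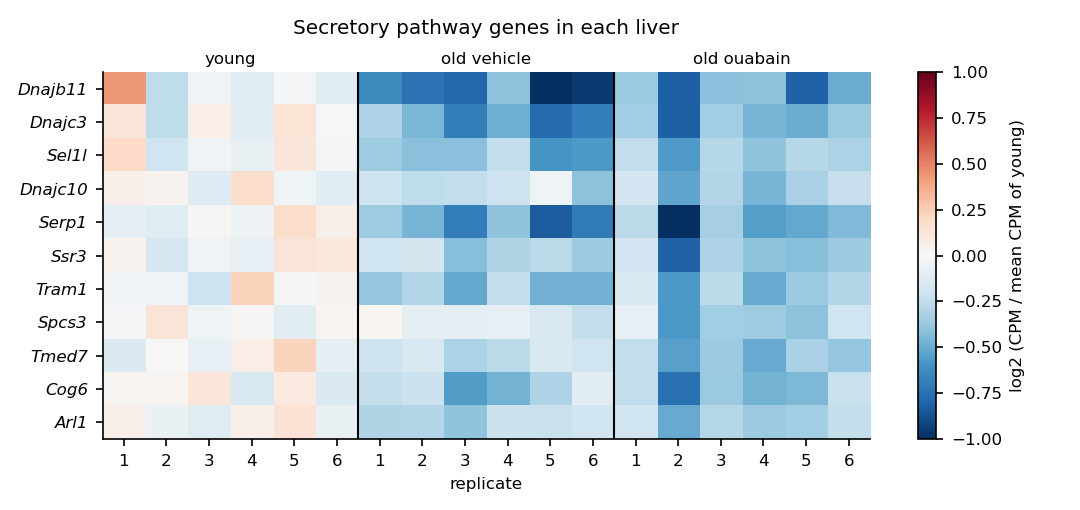
Colour gives the log2 ratio of each liver's CPM to the mean of the 6 young livers, for 11 called genes of the secretory route (rows) in 18 livers (columns). The old ouabain livers lie below the young mean in all 11 genes, with replicate 2 the lowest of its group for Dnajb11 at 82.1 CPM and for Dnajc3 at 166 CPM.

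Other falls were spread over functions. The largest was Nucb2 (ENSMUSG00000030659), the calcium-binding precursor of nesfatin-1, with 2.82 to 5.26 CPM (median 4.45) in the old ouabain livers and 4.84 to 13.9 CPM (median 7.98) in the young livers (log2 fold change -1.02, SE 0.24, edgeR adjusted p = 0.0385), and 1 young liver, replicate 2, lay inside the old ouabain range. Dpy19l1, a member of the family of C-mannosyltransferases, had 21.1 to 26.8 CPM (median 23.8) in the old ouabain livers and 32.5 to 38.4 CPM (median 35.2) in the young livers (log2 fold change -0.58, SE 0.10, edgeR adjusted p = 0.00642) and stayed called without any 1 library. Fn1 (ENSMUSG00000026193), fibronectin, had 872 to 1236 CPM (median 985) in the old ouabain livers and 1138 to 1551 CPM (median 1347) in the young livers (log2 fold change -0.43, SE 0.10, edgeR adjusted p = 0.0385), where old ouabain replicate 4 reached into the young range. Bgn, the proteoglycan biglycan, moved the other way (log2 fold change 0.41, SE 0.10, edgeR adjusted p = 0.0495). They were the 2 called genes of 30 for collagens and matrix, a list with a median of -0.08. Of 35 complement and coagulation genes 1 fell and 0 rose. Beside the counts of both lists, 0.638% of all genes tested rose and 0.381% fell.

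Atp8b1, the phospholipid flippase of the canalicular membrane, had 15.9 to 26.2 CPM (median 24.1) in the old ouabain livers and 27.2 to 42.3 CPM (median 36.7) in the young livers (log2 fold change -0.64, SE 0.13, edgeR adjusted p = 0.0185). Cxadr, the coxsackievirus and adenovirus receptor of cell junctions, was at a log2 fold change of -0.56 (SE 0.13, adjusted p = 0.0409), and Grb10, an imprinted adaptor that restrains insulin signalling, at -0.64 (SE 0.16, adjusted p = 0.0477). Plcb1, a phospholipase C, was at -0.62 (SE 0.14, adjusted p = 0.0302), Bach2, a transcriptional repressor of lymphocytes, at -0.89 (SE 0.21, adjusted p = 0.0426), and Ralgps1, an exchange factor for the GTPase Ral, at -0.72 (SE 0.15, adjusted p = 0.0227). Mid2 and Zfyve26 were at -0.63 (SE 0.14, adjusted p = 0.0302) and -0.56 (SE 0.12, adjusted p = 0.0214). Left out alone, young replicate 5 or old ouabain replicate 2 ended that of Atp8b1 (adjusted p up to 0.0671), old ouabain replicates 2 and 6 and young replicate 3 each ended that of Ralgps1 (up to 0.0802), and old ouabain replicates 2 and 5 and young replicates 3 and 5 that of Zfyve26 (up to 0.0735), while 7 to 13 of the 18 libraries each ended those of Fn1, Bgn, Cxadr, Grb10, Bach2, Nucb2, Plcb1 and Mid2 (adjusted p up to 0.135). Old ouabain replicate 2, left out alone, ended each of these 8. Old vehicle livers were called lower than young for Atp8b1, Cxadr, Grb10 and Bach2. They were not called for Ralgps1 and Mid2 (both -0.21, edgeR adjusted p = 0.331 and 0.296), Plcb1 (-0.37, 0.0561) or Zfyve26 (-0.31, 0.0695). None of the genes of this paragraph from Atp8b1 to Zfyve26 was called between ouabain and vehicle.

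Some genes differed from young and lay nearer to young than vehicle did. Of the 139 genes called against young, 15 were also called against vehicle, where 1.8% of all genes tested were. Of these, 14 went in the opposite direction (11 higher than young and 3 lower) and 1 in the same direction. Both tests use the same old ouabain livers, so the count is only a description. Besides Hsd3b2 and Cyp2c38, 7 of the 14 are described here, chosen by a rule that takes at most 6 in each direction. Cd36, a fatty acid transporter, had 83.9 to 132 CPM (median 107) in the old ouabain livers and 51.1 to 86.9 CPM (median 70.9) in the young livers (log2 fold change 0.63, SE 0.13, edgeR adjusted p = 0.0197) and stood at 153 to 231 CPM (median 164) in vehicle livers, with a called difference of ouabain from vehicle (log2 fold change -0.73, SE 0.13, edgeR adjusted p = 0.00712). Sorl1, a sorting receptor, had 3.65 to 6.87 CPM (median 5.89) in the old ouabain livers and 1.5 to 2.99 CPM (median 1.97) in the young livers (log2 fold change 1.38, SE 0.22, edgeR adjusted p = 0.00469) and stood at 10.9 ± 2.79 CPM in vehicle livers (SD, n = 6; log2 fold change -0.96, SE 0.19, edgeR adjusted p = 0.0137 for ouabain against vehicle). Kyat1, a kynurenine aminotransferase, had 125 to 158 CPM (median 138) in the old ouabain livers and 175 to 239.8 CPM (median 181) in the young livers (log2 fold change -0.45, SE 0.09, edgeR adjusted p = 0.0187) and stood at 93.4 ± 10.9 CPM in vehicle livers (log2 fold change 0.57, SE 0.09, edgeR adjusted p = 0.00383). The ouabain group lay between young and vehicle in each of these genes, which their choice by opposite signs fixed in advance. Setbp1, Tlr13 (a receptor for bacterial RNA) and Pde1a (a cyclic nucleotide phosphodiesterase) were likewise higher than young at 1.28, 1.23 and 1.12 on the log2 scale and lower than vehicle at -1.17, -1.09 and -0.85. Fermt2 (kindlin-2), an activator of integrins, was lower than young at -0.60 and higher than vehicle at 0.58. Against vehicle the calls of Cd36, Sorl1 and Kyat1 held without any 1 library, and those of Setbp1, Tlr13, Pde1a and Fermt2 ended in 4 to 7 of 18 such fits (adjusted p up to 0.0824). Against young Sorl1 and Pde1a stayed called without any 1 library, Kyat1 was lost without old ouabain replicate 2 and Cd36 without that library or young replicate 3 (adjusted p = 0.0648 at most for both), Fermt2 in 3 fits, Setbp1 in 7 and Tlr13 in 10 (adjusted p up to 0.0648, 0.138 and 0.138).

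One named gene was called against both groups in the same direction. Cpne3 (ENSMUSG00000028228), copine-3, a calcium-dependent membrane-binding protein, had 28.9 to 35.8 CPM (median 32.1) in the old ouabain livers and 32.5 to 48.5 CPM (median 43.7) in the young livers (log2 fold change -0.40, SE 0.09, edgeR adjusted p = 0.0346) and stood at 41.7 ± 3.92 CPM in vehicle livers (SD, n = 6; log2 fold change -0.36, SE 0.09, edgeR adjusted p = 0.0458 for ouabain against vehicle). Young replicate 1, at 32.5 CPM, lay within the old ouabain range, and the other young livers lay between 43.0 and 48.5 CPM. The call against young was lost in 9 and that against vehicle in 14 of the 18 fits that left out 1 library (adjusted p up to 0.103 and 0.125).

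Genes used as marks of senescence mostly gave no call. Beside the counts of this paragraph, 0.638% of all genes tested rose in old ouabain livers and 0.381% fell. Cdkn1a, which encodes the cell cycle inhibitor p21, had 1.39 to 5.32 CPM (median 3.12) in the old ouabain livers and 0.695 to 3.41 CPM (median 1.23) in the young livers (log2 fold change 1.14, SE 0.55, edgeR adjusted p = 0.313), and old vehicle livers were at 7.63 ± 6.01 CPM (SD, n = 6). Cdkn2a, which encodes p16 and p19, was too low to be tested, at 0 to 2.64 CPM (median 0.362) in old ouabain and 0 to 0.227 CPM (median 0) in young livers, and its highest value was in old ouabain replicate 2. Gdf15, a stress-induced cytokine, was at 0.60 (SE 0.17, adjusted p = 0.0956), Lmnb1, lamin B1, at 0.18 (SE 0.17, adjusted p = 0.634), and Mki67, a marker of dividing cells, at 0.81 (SE 0.51, adjusted p = 0.45). Of 26 tested p53 targets 1 rose, Phlda3, a membrane-bound inhibitor of the kinase Akt (log2 fold change 1.18, SE 0.26, edgeR adjusted p = 0.0302), lost in 8 of 18 fits without 1 library (adjusted p up to 0.116), and 0 fell. Of 25 tested secreted factors of senescent cells 1 rose, Ccl5, and 0 fell (median 0.10), and of 28 cell cycle genes 0 passed the test (median 0.27).

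Ouabain binds the Na,K-ATPase, the sodium and potassium pump. Atp1b1, the beta subunit, had a log2 fold change of -0.13 (SE 0.12, adjusted p = 0.633). Fxyd5, dysadherin, a small regulator of the pump, was the 1 member of 6 tested that rose, against 0.638% of all genes tested. It had 6.03 to 11.1 CPM (median 6.3) in the old ouabain livers and 2.47 to 3.86 CPM (median 3.12) in the young livers (log2 fold change 1.16, SE 0.21, edgeR adjusted p = 0.0123), with no overlap, and stayed called without any 1 library, and its highest value was in old ouabain replicate 2. Leukocytes also express Fxyd5, and their part in this rise was not tested.

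Id1, an inhibitor of DNA-binding factors that BMP signalling induces, had 10.1 to 41.1 CPM (median 16.2) in the old ouabain livers and 2.24 to 9.6 CPM (median 4.24) in the young livers (log2 fold change 2.07, SE 0.43, edgeR adjusted p = 0.03), with no overlap, and lost the call in 6 of 18 fits without 1 library (adjusted p up to 0.0828). Gstm2, a glutathione transferase, had 105 to 161 CPM (median 126) in the old ouabain livers and 74.9 to 104 CPM (median 83.3) in the young livers (log2 fold change 0.59, SE 0.11, edgeR adjusted p = 0.0142), also with no overlap and called without any 1 library. It was the 1 called gene of 29 for glutathione, glucuronide and sulfate conjugation, where 0.638% of all genes tested rose.

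Most lists of liver metabolism held no called gene, where 1.02% of all genes tested were called. At that share lists of this size would mostly hold none, so these zeros are only descriptions. This was so for cholesterol synthesis and uptake (23 genes tested, median log2 fold change 0.04), fatty acid synthesis (24, 0.02), bile acid synthesis and transport (21, -0.05), gluconeogenesis and glucose handling (22, -0.06) and the urea cycle with zonated nitrogen handling (19, 0.07). It was so, too, for NRF2 targets and metallothioneins (25, 0.09), acute phase proteins (24, -0.25), circadian clock genes (18, 0.05) and immediate early genes (18, 0.29). In old vehicle livers 11 of the 18 immediate early genes were higher than in young and 0 lower (median 0.89), against 10.1% and 7.9% of all genes. Nuclear-encoded respiratory chain genes (49, 0.08) and cytosolic ribosomal proteins (51, 0.11) had 0 calls, but 10 and 11 rose when young replicate 1 was left out. In that fit 340 of all 13640 genes tested rose. The 13 mitochondrial genome transcripts were all below 0 with none called (median -0.26). Of 29 genes for PPAR alpha targets and fatty acid oxidation 1 rose, Cd36. Sinusoidal endothelial markers (19, 0.03), stellate and mesenchymal markers (16, 0.16), bile duct markers (8, -0.22) and erythroid markers (9, 0.21) had 0 calls.

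**Figure D5:**
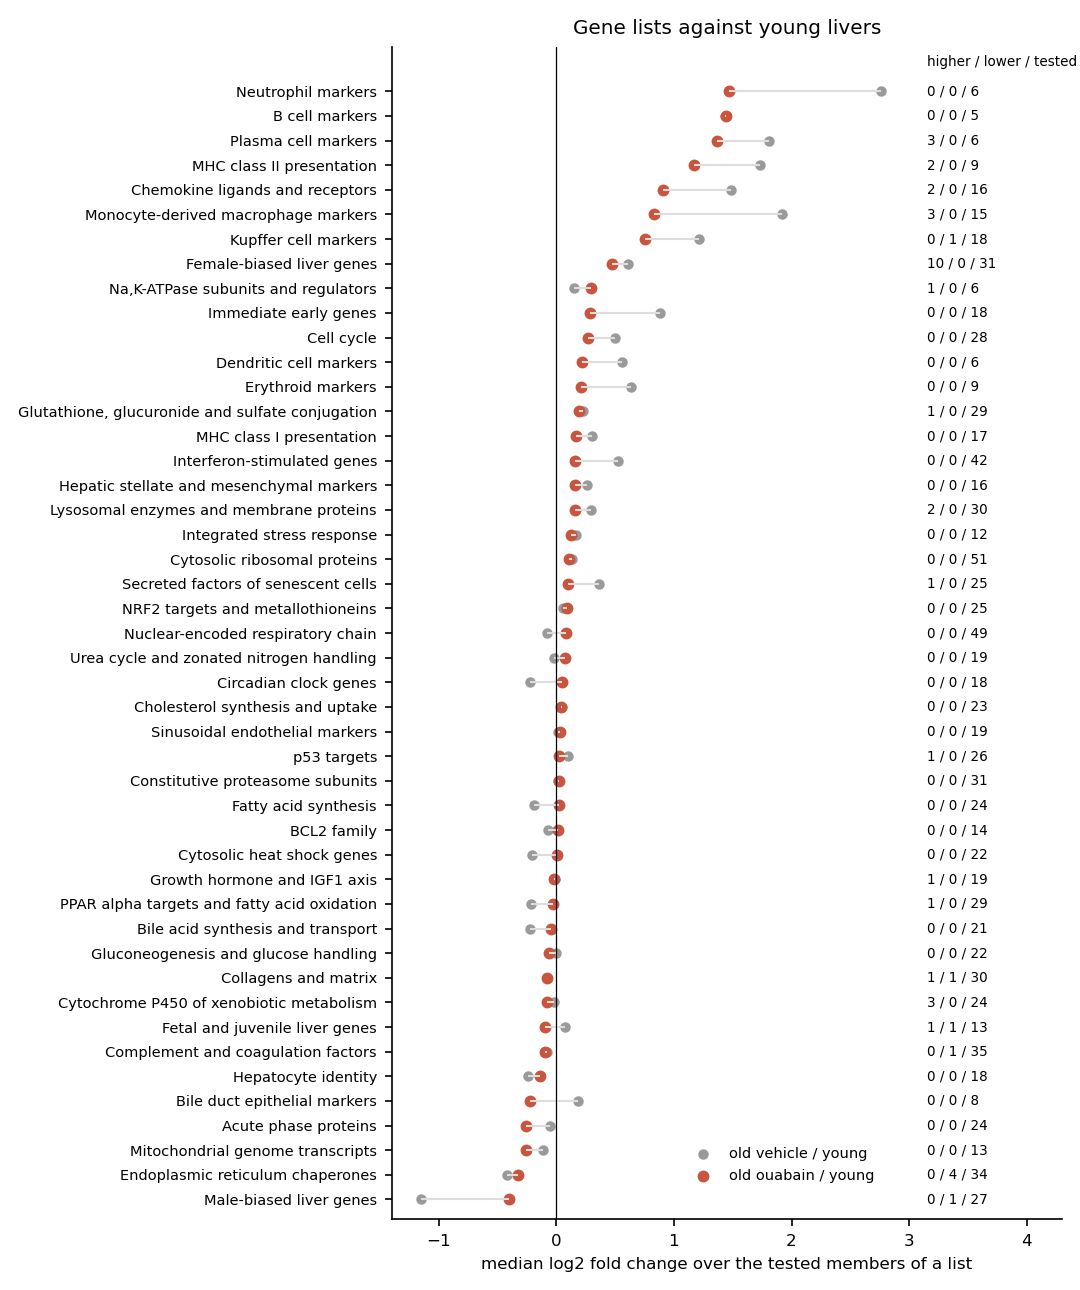
For each list with at least 5 tested genes, points give the median log2 fold change over its tested genes against young livers, for old ouabain (red) and old vehicle (grey), and the numbers give members higher, lower and tested for old ouabain. Medians of old ouabain run from 1.47 (neutrophil markers, 0 of 6 called) to -0.41 (male-biased liver genes, 1 of 27 called).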

How the data were processed

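RNA of 18 female mouse livers was sequenced, 1 library per liver. The submitters' processing notes name TopHat2 2.0.11, the mouse build mm9 and featureCounts. The authors deposited raw counts for 37620 Ensembl genes, not normalized. No source used here gives the annotation release, whether strand was used or how shared reads were counted, so values of antisense partners, overlapping genes and close paralogs are uncertain. Symbols were matched to 32897 identifiers. The 4723 without one took 1.46% of all counts. The design text describes 16 old mice, of which 12 have a library here, and no source used here says how these were picked.

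The deposited counts entered edgeR 4.0.16 (R 4.3.3) unchanged, using TMM factors, the 3 groups of 18 libraries in 1 robust quasi-likelihood fit without covariates, and the F-test (two-sided, Benjamini-Hochberg over all 13640 genes with 1 CPM in at least 6 of the 12 old ouabain and young libraries). An approximate standard error was taken as log2 fold change over the root of F. CPM are scaled by TMM, and a prior count of 2 was added before principal components. The libraries held between 4201251 and 11113307 counts. A count of 0 allows up to 3 counts, and such limits cover counting error only. The chi-square per gene between libraries of a group was at least 5.04, so no library appeared to be a copy of another. The fit was tested on simulated counts with known changes.

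The 51 gene lists (1162 of 1176 entries matched), the alternatives and the naming rule were chosen with earlier results of these data known. The rule names the 12 largest rises and falls past the threshold whose mean log2 CPM reached 2, with each group's 6 libraries beyond the other's median, up to 3 called members of each list, up to 6 genes in each direction called against both young and vehicle, and 9 genes whatever their values. Some genes that the rule or a list holds are not reported here, though they stay in the fits and in the counts over lists. Predicted, Mup, antigen receptor and pseudogene names were left out of the largest changes. Where a list had no call, its most abundant member, which the rule also names, is covered by the list's count and median. Lists too short to show as a distribution (under 5 tested genes) are left out of the plot of list medians. Alternatives were RLE size factors, 2 other filters, DESeq2 1.42.0, limma 3.58.1 voom with and without quality weights, a replicate block, thinning to the shallowest library, the 12 libraries alone and leaving out each library. Promoters come from a RefSeq table of GRCm38.p6, which is not the build of the counts, and shared 50-base stretches from GENCODE M21 transcripts.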

Additional observations from a re-analysis of the deposited data

Results flagged for a closer look

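Single livers stood apart from the other 5 of their group, by a gap beyond the 95% limit of Dixon's test, in 14 of 122 groups of values examined among the genes reported by the naming rule. Chance alone gives about 1 in 20, here 6.1.

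Old ouabain replicate 2 accounted for 6 of the 14. It was highest for Lgals1 at 54.7 CPM (the other 5 at 22.3 to 31.3), Fxyd5 at 11.1 CPM (6.03 to 6.35) and Cdkn2a at 2.64 CPM (0 to 0.928). It was lowest for Dnajc3 at 166 CPM (208 to 231), Atp8b1 at 15.9 CPM (23.2 to 26.2) and Atp1b1 at 51.9 CPM (60.3 to 65.4).

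The other old ouabain livers gave 2 such values. Replicate 6 was highest for Jchain at 13.9 CPM (5.08 to 6.42), and replicate 1 was lowest for Igf1 at 491 CPM (530 to 550).

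In the young group replicate 1 was highest for Dnajb11 at 195 CPM (121 to 143) and lowest for Cpne3 at 32.5 CPM (43.0 to 48.5). Young replicate 2 was highest for Cxadr at 134 CPM (89.1 to 106), Id1 at 9.60 CPM (2.24 to 4.61) and Mki67 at 5.76 CPM (1.49 to 2.54). Young replicate 4 was highest for Kyat1 at 240 CPM (175 to 187).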

How the results depend on the processing

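The 139 genes called between old ouabain and young livers became 413 with DESeq2, 511 with voom quality weights, 335 with the 12 libraries alone, 81 after thinning to the shallowest library and 63 with the replicate block, of which 48 were higher. Leaving out each library gave 34 (without old ouabain replicate 2) to 587 (without young replicate 1). RLE size factors (143), no filter (132), the filter by group (160) and voom (113) moved it by less than 1.5 times. After the data were seen, 3 settings were added: dropping young replicate 1 among the 12 libraries (877), old ouabain replicate 2 with young replicate 1 (175), and old vehicle replicate 4 with old ouabain replicate 5 (93). The cause of these changes was not tested. Same-numbered old ouabain and young livers did not deviate together (correlations -0.140 to 0.010, 0 of 6 best with their own number). Same-numbered old ouabain and old vehicle livers had correlations of -0.108 to 0.151, with 2 of 6 over 0.1 and 2 of 6 best with their own number. The labels name no pairing of livers by number. Of 53 called genes that the rule names and that are reported, 18 were called in all 18 fits without 1 library, 19 without old ouabain replicate 2 and 53 without young replicate 1. The 1 sign that turned was near 0: Lmnb1 (0.18) was at -0.057 after thinning. Depth limits genes near 1 CPM.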

Other observations

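Among the 87 genes higher in old ouabain than in young livers were further genes of leukocytes, picked out after their values were seen. Itgb7, an integrin subunit of lymphocytes, had 2.16 to 6.87 CPM (median 4.66) in the old ouabain livers and 0.596 to 1.82 CPM (median 1.01) in the young livers (log2 fold change 1.92, SE 0.33, edgeR adjusted p = 0.00771), with no overlap. Prex1, an exchange factor for the GTPase Rac in myeloid cells, had 7.65 to 11.4 CPM (median 8.91) in the old ouabain livers and 3.75 to 4.86 CPM (median 4.37) in the young livers (log2 fold change 1.09, SE 0.18, edgeR adjusted p = 0.00642), also with no overlap. Lsp1 and Coro1a, which bind actin in leukocytes, were at log2 fold changes of 1.34 (SE 0.26, adjusted p = 0.0163) and 1.38 (SE 0.32, adjusted p = 0.0491), and Cd52, a surface protein of lymphocytes, was at 1.41 (SE 0.31, adjusted p = 0.0342). Against old vehicle livers none of these 5 was called except Prex1, at the limit (log2 fold change -0.64, SE 0.17, edgeR adjusted p = 0.05).

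Genes that respond to BMP or TGF-beta signalling were also among the rises, chosen in the same way. Beside Id1, the inhibitor Smad6 had 7.13 to 10.5 CPM (median 8.19) in the old ouabain livers and 3.98 to 6.55 CPM (median 5.01) in the young livers (log2 fold change 0.73, SE 0.16, edgeR adjusted p = 0.031), and Pmepa1, an inhibitor of TGF-beta signalling, had 4.21 to 4.8 CPM (median 4.41) in the old ouabain livers and 1.61 to 2.86 CPM (median 2.44) in the young livers (log2 fold change 0.95, SE 0.19, edgeR adjusted p = 0.0175). The old ouabain livers were above the young livers in all 6 libraries for both.

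Adcy1, an adenylyl cyclase, had a large rise with a wide spread. It had 0.908 to 17.3 CPM (median 10.2) in the old ouabain livers and 0.215 to 1.25 CPM (median 0.591) in the young livers (log2 fold change 4.00, SE 0.77, edgeR adjusted p = 0.0203), with the lowest old ouabain liver inside the young range, and 9.29 to 78.3 CPM (median 33.1) in old vehicle livers. Gpx3, the secreted glutathione peroxidase, had 9.98 to 20.3 CPM (median 15) in the old ouabain livers and 3.97 to 9.66 CPM (median 5.86) in the young livers (log2 fold change 1.37, SE 0.24, edgeR adjusted p = 0.0101).

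Sult1e1, the oestrogen sulfotransferase, had a large difference without a call, at 4.44 (SE 1.63, adjusted p = 0.201).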
